A study of Homo sapiens with 4 samples.

Results

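The transcripts of 10 chaperone genes were examined in an iCLIP experiment that compared RNA bound to PDCD4, a nuclear and cytoplasmic RNA-binding protein known as an inhibitor of translation, with RNA recovered by a control IgG. The genes are HSP90AA1, HSP90AB1, HSP90B1, HSPA1A, HSPA1B, HSPA8, HSPA5, HSPA9, HSPD1 and HSPB1, and a crosslink site was counted for a gene when its deposited label held that exact symbol. These genes held 769 of the 158922 sites listed for PDCD4 and 157 of the 111361 sites listed for IgG, out of 14387 gene symbols with a site in either list. In iCLIP, UV light joins protein to RNA in living cells, and the cDNA made from the RNA tends to stop at the joined nucleotide. Each site is therefore 1 nt wide, and its score is the number of cDNAs that ended there.

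The cells were MCF10A, an established non-transformed breast epithelial line, of wild-type genotype in every sample, grown with horse serum, epidermal growth factor, insulin, hydrocortisone and cholera toxin. There were 2 PDCD4 immunoprecipitations and 2 IgG immunoprecipitations, but each pair was deposited as 1 pooled list. No spread between replicates exists in these data, so no test was made, and every interval given here is a 95% interval of the counting error only. PCR duplicates and shared cDNA synthesis are not covered by it. The level of each RNA in the cells was not measured here, so that a gene with many cDNAs in both lists cannot be told apart from an abundant RNA. All 12 breast epithelial marker genes had PDCD4 sites, 1693 cDNAs in all against 564 for IgG, with KRT14 the lowest at 3 cDNAs. None of the 8 markers of blood, endothelial, mesenchymal, liver and islet cells had a site in either list.

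Chaperones bind proteins that are not fully folded and let them fold, assemble or be handed on for degradation. HSP90 proteins act late, on kinases, receptors and other clients that are almost folded, and HSP70 proteins act early, on short hydrophobic stretches of new or damaged chains. HSPD1 forms the folding chamber of mitochondria, and small heat shock proteins such as HSPB1 hold damaged proteins without using ATP. Some of these genes, among them HSPA1A and HSPA1B, are strongly induced by heat, while HSPA8, HSP90AB1, HSPA9 and HSPD1 are made in all growing cells and HSPA5 and HSP90B1 serve the endoplasmic reticulum.

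The sites with most cDNAs show in what kind of sequence the sites lay. Each of the following stretches runs 5′ to 3′ on the strand of the RNA, in GRCh38 with T for U. It covers the nucleotide listed as the site, which is the capital, and the 12 nt on either side. They are shown because each is the highest or next highest PDCD4 site of a gene on which the results below turn.
HSP90AA1, exon 5, chr14:102084932-102084956, minus strand, 30 cDNAs: gaagaaaaggaaGacaaagaagaag
HSP90AA1, exon 5, chr14:102084811-102084835, minus strand, 14 cDNAs: agaagaagaagaTtaaggaaaagta
HSP90AB1, 3′UTR, chr6:44253622-44253646, plus strand, 11 cDNAs: cttgtgcccttgTatagtgtcccca
HSP90B1, exon 8, chr12:103939526-103939550, plus strand, 9 cDNAs: ggactgggaactTatgaatgatatc
HSPD1, exon 3, chr2:197497366-197497390, minus strand, 12 cDNAs: aagaacagtgatTattgagcagagt
HSPD1, exon 9, chr2:197489083-197489107, minus strand, 11 cDNAs: tattcaagaaatCattgagcagtta
HSPA8, beside SNORD14D, chr11:123058984-123059008, minus strand, 10 cDNAs: agtcttgactgaCtcgctatgatga
HSPA8, exon 8, chr11:123058387-123058411, minus strand, 8 cDNAs: gagggacaaggtGtcatccaagaat
None of these positions carried a site in the IgG list. The methods describe removal of IgG sites from the PDCD4 data, and only 721 positions over all genes are in both lists. This absence is therefore partly set by the processing. The HSP90AA1 pair is mostly purine, while the sites in HSP90AB1, HSP90B1, HSPD1 and HSPA8 lie in mixed sequence.

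Summed over the 10 genes, the PDCD4 list held 2347 cDNAs, 0.573% of its total of 409308, and the IgG list 437 cDNAs, 0.158% of its total of 276139. The log2 ratio of cDNAs per 10000 cDNAs of the list, with a pseudocount of 1 added to each sum, was 1.85 (1.71 to 2.01) in favour of PDCD4. Of the 10 genes, 9 had at least 10 cDNAs in both lists combined, and 7 of these had a log2 ratio of 1 or more, which is the fold used here to call a gene higher. Over all 9585 genes with that many cDNAs, 18.8% were called higher. None of the 9 chaperone genes was called lower, against 18.1% of all genes. Their median log2 ratio was 1.97, and that of all 9585 genes was -0.08. All 9 had a ratio above 0, as did 46.8% of all genes. Over all genes, coding sites held 90943 of the 409308 PDCD4 cDNAs and 28522 of the 276139 IgG cDNAs. The PDCD4 list as a whole was thus richer in coding sequence, where most sites of the 10 genes lay. The part of this in their ratios was not tested. The exceptions to the call were HSPA8 and HSPA1B, and HSPB1 had too few cDNAs to enter.

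**Figure D1:**
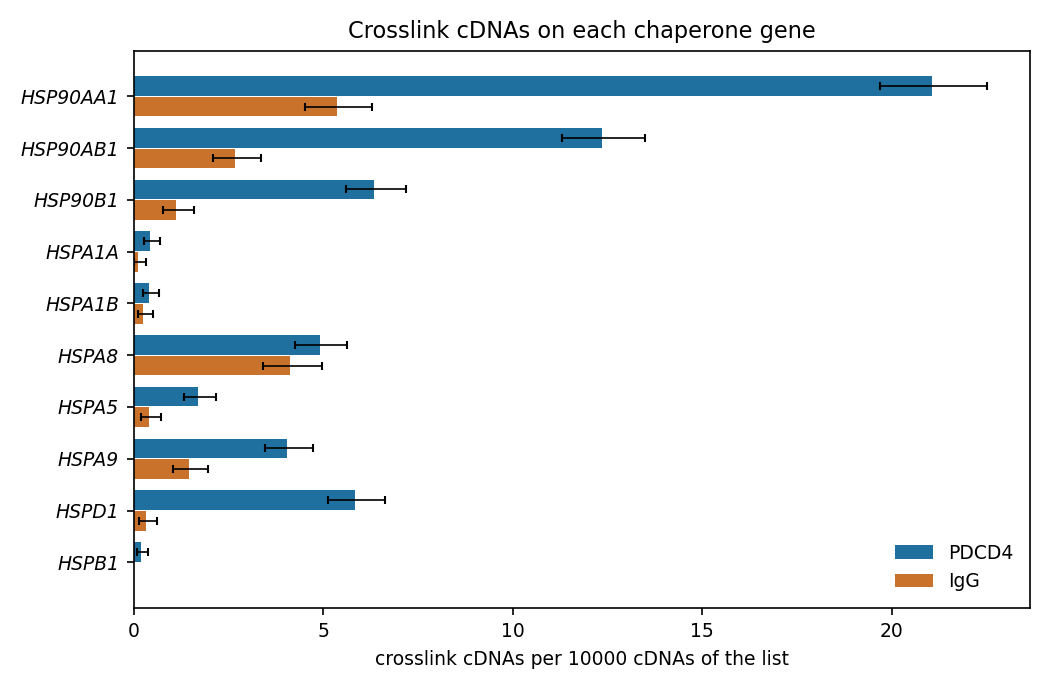
Crosslink cDNAs on each of the 10 chaperone genes per 10000 cDNAs of the PDCD4 list (blue) and the IgG list (orange); bars are single pooled lists and the lines are 95% intervals of counting error. HSP90AA1 stands at 21.1 against 5.36 and HSPD1 at 5.84 against 0.326, while the HSPA8 bars, 4.91 and 4.13, have overlapping intervals and HSPB1 has no IgG cDNA.

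The cytosolic HSP90 genes held 1368 of the 2347 PDCD4 cDNAs and 222 of the 437 IgG cDNAs. HSP90AA1, the inducible form, had 862 cDNAs at 266 sites for PDCD4 and 148 cDNAs at 63 sites for IgG, a log2 ratio of 1.97 (1.72 to 2.24). It ranked 10 among all genes by PDCD4 cDNAs and 179 by IgG cDNAs. The genes nearest to it in both values were LAMA5, a laminin chain (932 PDCD4 and 180 IgG cDNAs), ACTB, cytoplasmic actin (1079 and 179), and MIRLET7BHG, a microRNA host gene (1133 and 195). HSP90AB1, the constitutive form, had 506 cDNAs at 160 sites against 74 cDNAs at 24 sites, a ratio of 2.19 (1.85 to 2.58) and ranks of 38 and 738. The intervals of the 2 genes overlap, so that their ratios did not differ beyond counting error. HSP90B1, the HSP90 of the endoplasmic reticulum, had 91 sites with 260 cDNAs against 10 sites with 31 cDNAs, a ratio of 2.46 (1.96 to 3.09).

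The HSP70 genes were more varied. HSPA5, also known as BiP, had 70 PDCD4 cDNAs at 26 sites and 11 IgG cDNAs at 3 sites, a fold of 3.99, and its log2 interval ran from 1.18 to 3.17. HSPA9, the mitochondrial HSP70 or mortalin, had 60 sites with 166 cDNAs against 12 sites with 40 cDNAs, a ratio of 1.46 (0.98 to 2.02). HSPA8, the constitutive cytosolic HSP70, had 58 sites with 201 cDNAs against 38 sites with 114 cDNAs, and its ratio of 0.24 had an interval from -0.09 to 0.59 that includes 0. The interval of HSPA8 lies wholly below those of HSP90AA1, HSP90AB1, HSP90B1, HSPA5, HSPA9 and HSPD1. In the IgG list HSPA8 ranked 321 among all genes, behind HSP90AA1 at 179 and ahead of HSP90AB1 at 738.

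The stress-induced HSP70 genes held few cDNAs. HSPA1A had 18 PDCD4 cDNAs at 8 sites and 3 IgG cDNAs at 1 site, a log2 ratio of 1.68 with a wide interval from 0.24 to 4.42. With a pseudocount of 5 its ratio was 0.96, below the fold of the call. HSPA1B had 11 sites with 17 cDNAs against 2 sites with 7 cDNAs, a ratio of 0.60 (-0.63 to 2.22). Their coding sequences are 99.8% identical over 1926 aligned nt, and the 30 nt that follow a position occur elsewhere in the genome for 77.4% of HSPA1A and 74.2% of HSPA1B transcript positions. Only 1 of the 19 PDCD4 sites of these 2 genes had such a repeated sequence after it. Most of them lay in the 3′UTRs, 6 of 8 in HSPA1A and 10 of 11 in HSPA1B. How the authors treated reads that map to several places is not given in the sources used here, so the counts of HSPA1A and HSPA1B are uncertain.

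HSPD1, the mitochondrial chaperonin HSP60, had the highest ratio of the 9 genes. It held 239 PDCD4 cDNAs at 87 sites and 9 IgG cDNAs at 4 sites, a log2 ratio of 4.02 (3.21 to 5.31) that ranked 84 among the 9585 genes. Its interval lies above those of HSP90AA1, HSP90AB1, HSP90B1, HSPA1B, HSPA5, HSPA8 and HSPA9 and overlaps that of HSPA1A. HSPB1, or HSP27, was at the other end, with 2 PDCD4 sites of 5 and 3 cDNAs and no IgG site, so that no fold is given. The site with 5 cDNAs lay in the 5′UTR within exon 1, at chr7:76302679 on the plus strand.

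**Figure D2:**
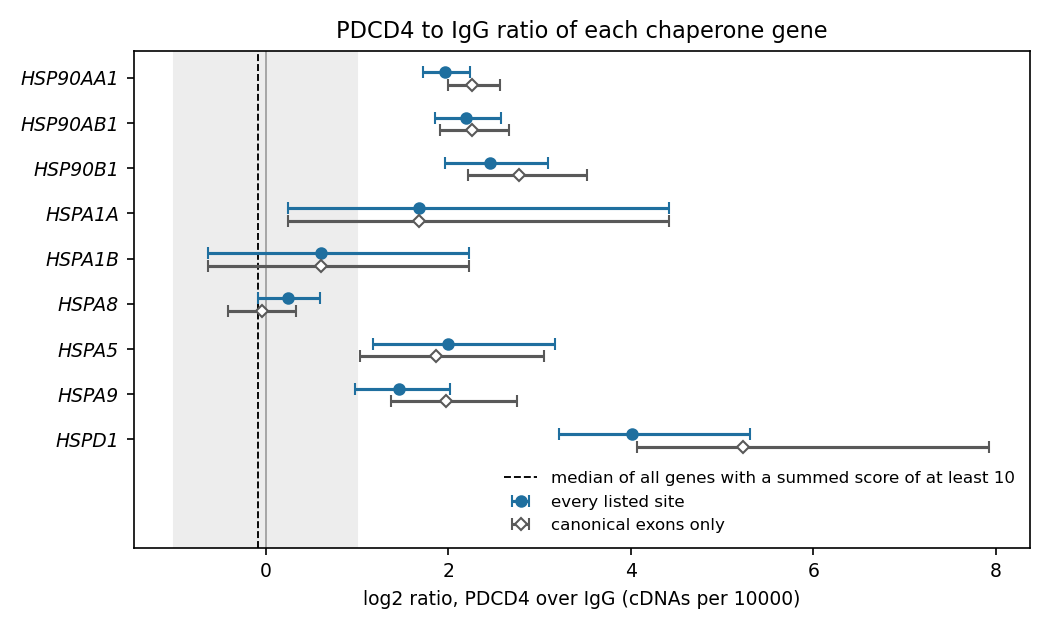
Log2 ratio of PDCD4 over IgG cDNAs per 10000 for the 9 chaperone genes with cDNAs in both lists, over every listed site (blue circles) and over the exons of the canonical transcript (open diamonds), with 95% intervals of counting error; the shaded band marks less than 2-fold, and the dashed line is the median of all genes, -0.08. HSPD1 lies furthest to the right at 4.02, and HSPA8 lies at 0.24 over every site and at -0.04 over canonical exons.

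Set against transcript length, the order of the genes was clear at the top. In the exons of the Ensembl canonical transcript, PDCD4 cDNAs per kb of exon were 262 for HSP90AA1, 188 for HSP90AB1, 98.4 for HSPD1, 87.3 for HSP90B1, 66.3 for HSPA8, 30.2 for HSPA9, 16.3 for HSPA5, 7.50 for HSPA1A, 6.75 for HSPA1B and 6.44 for HSPB1. The HSPA1A and HSPA1B values count every position, although 77.4% and 74.2% of these are followed by a sequence found elsewhere in the genome. The IgG list gave another order, led by HSPA8 with 45.9 IgG cDNAs per kb. HSP90AA1 followed with 36.6, HSP90AB1 with 26.2 and HSP90B1 with 8.27. HSPD1, the gene with the next highest PDCD4 density after the cytosolic HSP90 genes, had 1.34 IgG cDNAs per kb.

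The strongest sites were concentrated on few genes. With scores above 5, the threshold named in the methods, the 10 genes held 505 PDCD4 cDNAs at 62 sites and 26 IgG cDNAs at 4 sites, a log2 ratio of 2.27 (1.75 to 2.95). At the same threshold, the median of the single-gene log2 ratios of the 1520 genes with such a site in either list was 0.85. This is another measure than the 2.27, which pools the 10 genes. A PDCD4 site above 5 was present in 5 of the 10 genes, whereas 8.36% of all genes with a PDCD4 site had one. HSP90AA1 had 29 of the 62 sites (256 cDNAs) and HSP90AB1 had 19 (142 cDNAs). HSPA8 followed with 7 sites (50 cDNAs), of which 5 were coding. Its other sites, of 10 and 6 cDNAs, lay at small nucleolar RNA genes in its introns. HSP90B1 had 4 sites above 5 (27 cDNAs) and HSPD1 had 3 (30 cDNAs). HSPA5, HSPA9, HSPA1A, HSPA1B and HSPB1 had none. In the IgG list HSPA8 had 2 such sites, HSP90AB1 had 1 and HSPA9 had 1. That is 3 of the 9 members with an IgG site, against 5.07% of all genes with one. Over all genes 2354 of the 158922 PDCD4 sites had a score above 5. As a share of their own sites, 8.06% of the PDCD4 sites of the 10 genes had such a score. Among genes with such a site, the share ran from 12.1% in HSPA8, 11.9% in HSP90AB1 and 10.9% in HSP90AA1 to 3.45% in HSPD1. HSPD1 thus had the highest ratio of the 9 genes with mostly low scores spread over many positions.

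The methods describe removal of IgG sites from the PDCD4 data, and positions shared by both lists were counted. In the 10 genes 21 positions were in both, 10 of them in HSP90AA1 and 7 in HSP90AB1. At HSP90AB1 position chr6:44253645 in the 3′UTR, 11 nt from the site of 11 cDNAs printed above, the score was 8 in each list. Without the shared positions the ratio over all 10 genes was 2.03 and that of HSP90AB1 was 2.61.

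The PDCD4 sites lay mostly in coding sequence. Of the 769 sites, 549 were coding, 71.4% (68.1% to 74.6%), 155 in 3′UTRs (20.2%), 18 in 5′UTRs, 24 in exons of non-coding transcripts and 23 in introns (2.99%, 1.91% to 4.45%). Coding sequence was counted first where annotated transcripts differ. With 1 transcript per gene the coding share was 71.1%. With UTRs, introns and non-coding exons of any transcript counted before coding sequence, it was 19.6%, an order not applied to all genes. With coding sequence counted first, 20.9% of PDCD4 sites over all genes were in coding sequence and 49.6% in introns. In the IgG list the 10 genes had 84 of 157 sites in coding exons, 53.5% (45.4% to 61.5%), and 21 in introns (13.4%, 8.47% to 19.7%), and all genes had 9.74% and 66.0%. The PDCD4 and IgG intervals of the 10 genes overlap neither for coding sequence nor for introns. Among PDCD4 sites with a score above 5 the coding share rose to 85.5% (74.2% to 93.1%) in the 10 genes, against 37.8% over all genes.

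**Figure D3:**
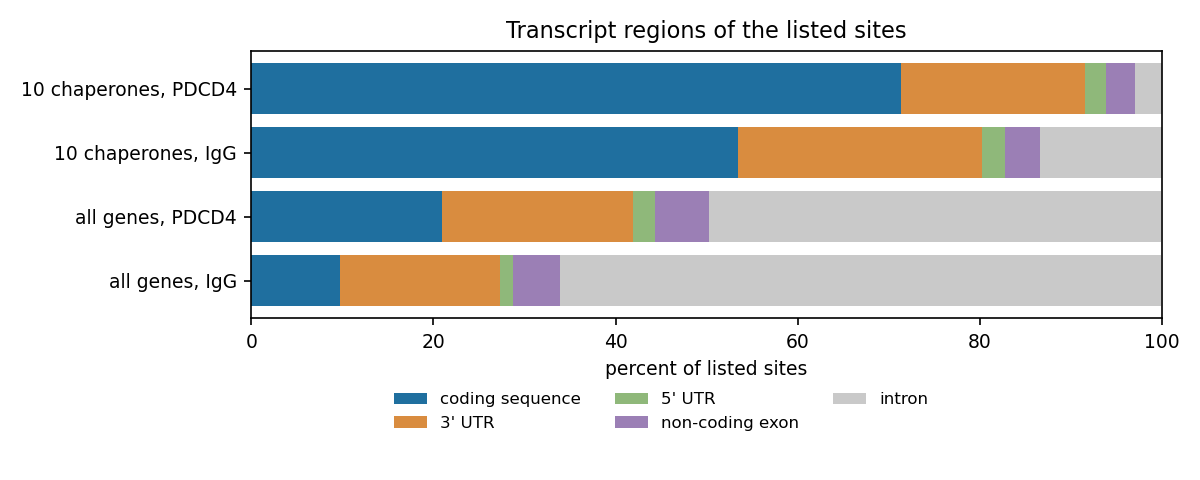
Share of listed sites in each transcript region, for the 10 chaperone genes and for all genes, in the PDCD4 and IgG lists. Coding sequence takes 71.4% and 53.5% of the chaperone sites but 20.9% and 9.74% of all sites, and introns take 2.99% and 13.4% against 49.6% and 66.0%.

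The coding share was not the same in every gene. It was 79.3% in HSP90AA1, 76.9% in HSP90B1, 75.9% in HSPD1, 75.0% in HSP90AB1 and 70.7% in HSPA8, with overlapping intervals. HSPA9 had a coding share of 43.3% (30.6% to 56.8%) and 41.7% (29.1% to 55.1%) of its sites in the 3′UTR, and its interval for coding sequence lies below those of HSP90AA1, HSP90AB1, HSP90B1, HSPA8 and HSPD1. HSPA5 had 13 of 26 sites in coding sequence. HSPA1B had none of its 11 PDCD4 sites there, in a coding sequence 99.8% identical to that of HSPA1A. Of the HSP90AA1 sites of the IgG list 49.2% (36.4% to 62.1%) were coding. Introns held 17.5% (9.05% to 29.1%) of them, against 2.63% (1.06% to 5.35%) of the PDCD4 sites of this gene.

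HSPA8 differed from the other genes in where its sites outside the exons of the canonical transcript lay. All 17 of its PDCD4 sites there, with 51 of the gene's 201 cDNAs, were inside or within 20 nt of SNORD14C, SNORD14D or SNORD14E, box C/D small nucleolar RNAs encoded in HSPA8 introns that guide methylation of ribosomal RNA. No HSPA8 site of the IgG list was within that distance of a snoRNA gene. The highest of them, the site with 10 cDNAs printed above, is the nucleotide directly before the 5′ end of SNORD14D. Whether its cDNAs ended at a crosslink or at the end of the snoRNA was not tested. SNORD14E held sites of 6 and 5 cDNAs. Only 5 of the 17 carried a snoRNA in their deposited label. Over the canonical exons alone HSPA8 had 150 PDCD4 and 104 IgG cDNAs, a log2 ratio of -0.04 (-0.41 to 0.34). The same restriction gave 2.26 for HSP90AA1 (845 and 118 cDNAs) and 5.23 for HSPD1 (221 and 3 cDNAs). None of the other 9 genes had a PDCD4 site within 20 nt of a snoRNA gene, and HSPA9 had 2 such IgG sites, at SNORD63.

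**Figure D4:**
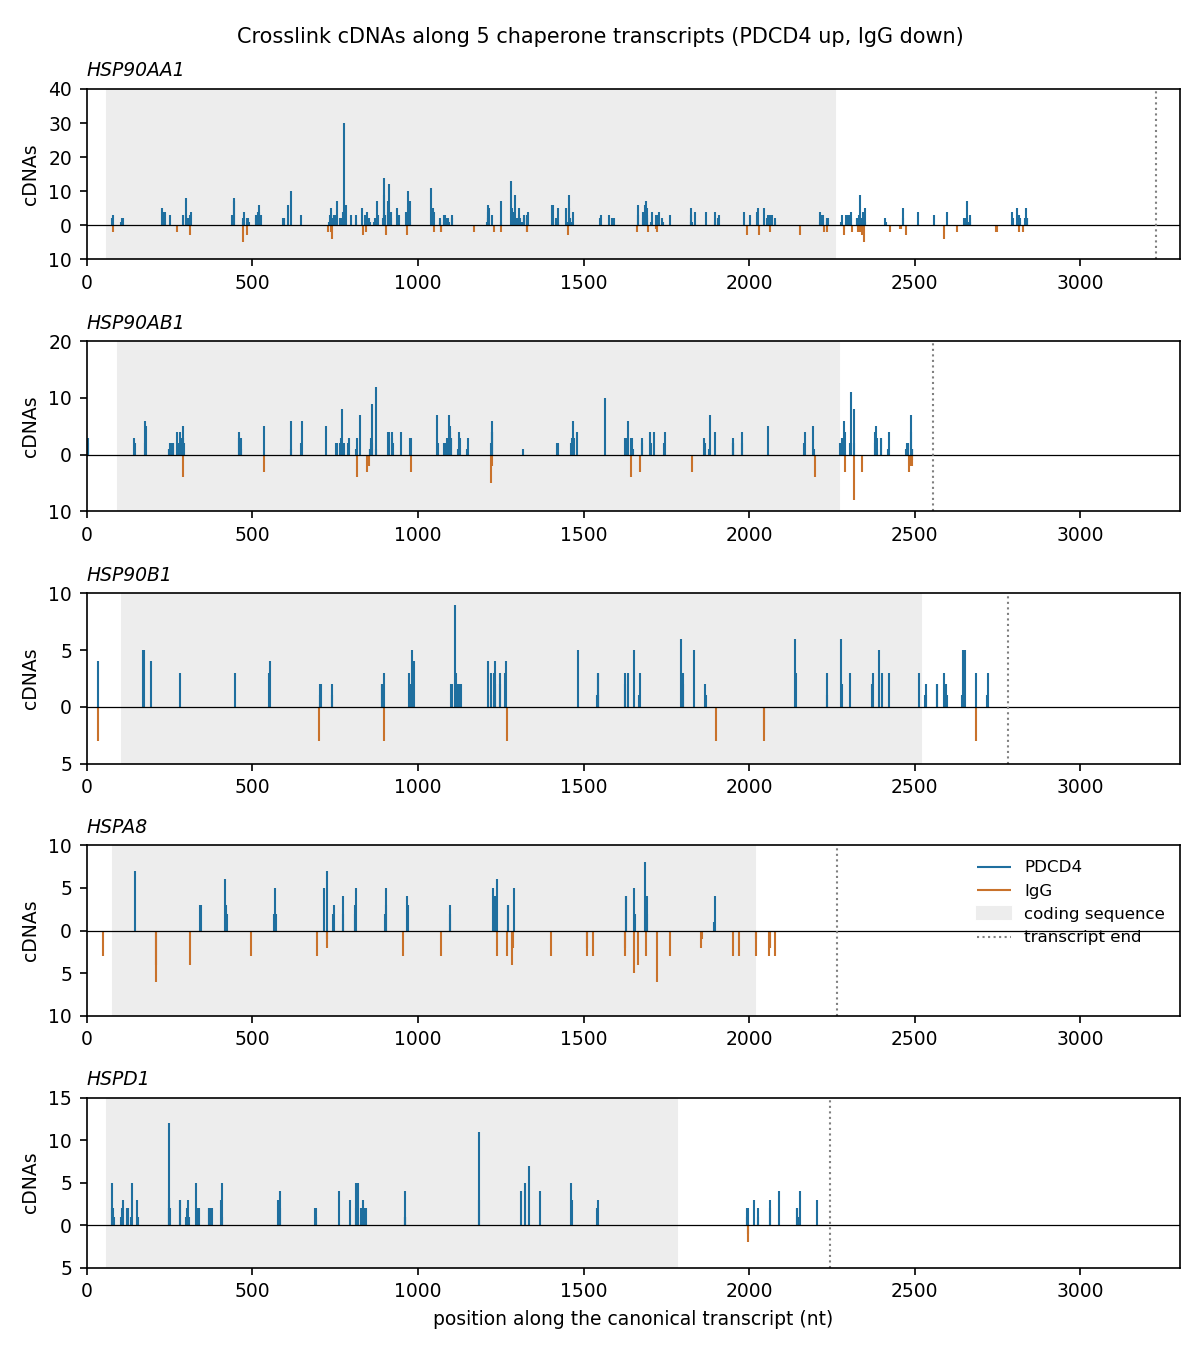
Crosslink cDNAs at each nucleotide of the canonical transcripts of HSP90AA1, HSP90AB1, HSP90B1, HSPA8 and HSPD1, from the 5′ end, with PDCD4 upward (blue) and IgG downward (orange); the shaded span is the coding sequence and the dotted line the transcript end, and vertical scales differ between panels. The tallest line is the HSP90AA1 site of 30 cDNAs, HSPD1 has hardly any IgG lines, and HSPA8 has PDCD4 and IgG lines of similar height.

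Along the coding sequence, PDCD4 sites were most frequent in the middle. Each canonical coding sequence was divided into 3 equal parts. Of 547 coding sites, 31.4% lay in the first part, 44.2% (40.03% to 48.5%) in the middle part and 24.3% in the last, whereas all genes had 33.7%, 33.0% and 33.3%. The middle part held most sites in HSP90AA1 (47.9%, 40.96% to 54.8%), HSP90B1 (48.6%), HSPA8 (53.7%), HSPA9 (45.8%) and HSP90AB1 (48 of 120 sites). HSPD1 was different, with 56.1% (43.3% to 68.3%) of 66 coding sites in the first part and 12.1% (5.38% to 22.5%) in the last. HSPA5 had most in the last part, 6 of 13, as did HSPA1A with 2 of 2. Of the 84 IgG coding sites 41.7% (31.0% to 52.9%) lay in the last part, and 15 of these 35 sites were in HSPA8, which had 28 in all. The IgG sites of the cytosolic HSP90 genes were most frequent in the middle part, as for PDCD4, with 13 of 31 in HSP90AA1 and 6 of 13 in HSP90AB1. In HSPA8 the last exon held 5 PDCD4 cDNAs at 2 sites and 23 IgG cDNAs at 10 sites. Exon 7 of HSPA8 had 4 IgG sites and no PDCD4 site. In HSPD1, exon 3 (59 cDNAs), exon 7 (33 cDNAs) and exon 2 (30 cDNAs) had the highest PDCD4 densities, 23.3, 19.5 and 17.0 cDNAs per 100 nt, and none of these exons had an IgG site.

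In HSP90AA1 the peak was exon 5, which holds both HSP90AA1 sites printed above. Exon 5 (chr14:102084681-102084998, minus strand, 318 nt) held 54 PDCD4 sites with 227 cDNAs, 71.4 per 100 nt, and 10 of the gene's 29 sites above 5. The next exon by density was exon 7 with 52.9 cDNAs per 100 nt, and the last exon, which holds the 3′UTR, had 13.1. The IgG list was also densest in exon 5 of this gene, with 5.97 cDNAs per 100 nt, and had 4.63 in the last exon. HSP90AB1 was flatter, with 31.7 cDNAs per 100 nt in exon 6, 32.5 in exon 7 and 26.8 in the last exon, where 35 sites included 4 with scores above 5.

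HSP90 proteins carry a charged linker, rich in glutamate and lysine, between the ATP-binding domain and the middle domain that contacts clients. The window of 50 codons with most GAA, GAG, AAA and AAG codons, the codons for these residues, was located in each HSP90 coding sequence. This comparison was chosen after the printed sites had been seen. In HSP90AA1 the window was codons 234 to 283 (chr14:102084813-102084962), with 35 such codons, 70.0% against 24.1% in the whole coding sequence. It held 27 PDCD4 sites with 120 cDNAs, 16.7% of the coding cDNAs in 6.82% of the coding length, and 5 sites above 5. In HSP90AB1 it was codons 218 to 267, with 28 such codons, 22 sites and 71 cDNAs, 18.6% of the coding cDNAs in 6.90% of the length. In HSP90B1 it was codons 285 to 334, with 29 such codons, 7 sites and 20 cDNAs, 9.71% of the coding cDNAs in 6.22% of the length. The IgG list had 3 sites with 8 of 75 coding cDNAs in the HSP90AA1 window, 10.7%, and 4 sites with 11 of 42 in the HSP90AB1 window, 26.2%. None of the 17 IgG coding cDNAs of HSP90B1 was in its window. The PDCD4 share was thus the higher one in HSP90AA1 and HSP90B1 and the lower one in HSP90AB1, on few IgG cDNAs.

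The cytosolic HSP90 genes could be compared position by position. Their coding sequences align over 2175 nt with 76.0% identity. When the alignment was cut into 12 bins, bin 5, positions 726 to 906, held most PDCD4 cDNAs in both genes, 146 in HSP90AA1 and 66 in HSP90AB1. The IgG list also had most cDNAs in bin 5, 11 in HSP90AA1 and 10 in HSP90AB1. For PDCD4, bin 7 was high only in HSP90AA1, with 101 cDNAs against 17. Of 206 HSP90AA1 and 120 HSP90AB1 coding sites in the alignment, 39 fell on the same aligned position, 18.9% of the former and 32.5% of the latter. Reads from identical stretches of the genes could be placed on either one, and the part of such reads in this overlap was not tested.

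**Figure D5:**
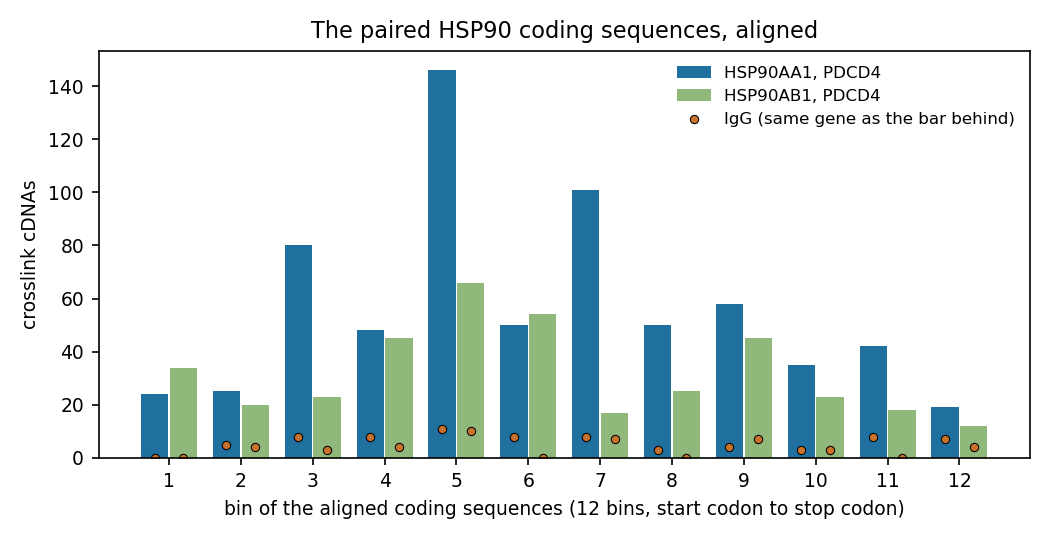
Crosslink cDNAs in 12 bins of the aligned HSP90AA1 (blue) and HSP90AB1 (green) coding sequences, from start codon to stop codon; bars are PDCD4 cDNAs and dots the IgG cDNAs of the same gene, from 1 pooled list each. Bin 5 is the highest in both genes, with 146 and 66 PDCD4 cDNAs, and also for IgG, with 11 and 10. For PDCD4, bin 7 is high in HSP90AA1 at 101 but not in HSP90AB1 at 17.

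Sites of the 10 genes were scarce at the 3′ ends of exons that precede an intron. Sites at the ends and starts of exons were not counted over all genes. In the 56 exons of at least 120 nt that precede an intron, the last 60 nt, 3360 nt in all, held 2 PDCD4 sites, and the remaining 8691 nt held 501. The IgG list had the same feature, with 3 and 70 sites. The first 10 nt of the 52 exons between introns held 40 PDCD4 sites, 7.69 per 100 nt against 6.15 per 100 nt in the exon interior. In HSP90AA1 the first 10 nt held 22 sites, 24.4 per 100 nt against 12.4 in the interior, and in HSP90AB1 14 sites, 14.0 against 7.40. HSP90B1 had 3.33 against 4.66, HSPA8, HSPA5 and HSPA9 had no PDCD4 site in the first 10 nt of such exons, and HSPD1 had 1. The IgG list had 6 sites in these first 10 nt, 1.15 per 100 nt against 0.857 in the interior.

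At the crosslinked nucleotide itself, T was the most frequent base. Of the 549 coding PDCD4 sites of the 10 genes, 35.5% (31.5% to 39.7%) were T, which makes up 21.5% of these genes' coding sequence. The T share over all coding PDCD4 sites was 34.4%. The IgG list was alike, with 33.3% T (23.4% to 44.5%) at the 84 coding sites of the 10 genes and 36.1% over all genes. The chaperone sites were C less often, 21.3% (18.0% to 25.0%) against 33.2% over all genes, and A more often, 23.7% (20.2% to 27.5%) against 16.8%. The coding sequences of the 10 genes are 22.2% C and 29.2% A. In HSPD1, A made up 28.8% and G 9.09% of the sites.

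Chaperone genes have many processed pseudogenes, so each site was checked for other copies of the sequence that follows it. The 30 nt after the site occurred elsewhere in GRCh38 for 296 of the 769 PDCD4 sites (38.5%) and for 55 of the 157 IgG sites (35.0%), while 45.2% of all transcript positions of the 10 genes had such a copy. The share of PDCD4 sites was highest in HSPD1, 59.8%, where 70.7% of positions had a copy. Over the sites without a copy, the log2 ratio was 1.78 for the 10 genes, 4.03 for HSPD1, 1.92 for HSP90AA1, 2.42 for HSP90AB1 and 0.27 for HSPA8, and the same 7 genes were called higher. Sites labelled with pseudogenes of these genes numbered 4 in the PDCD4 list, with 11 cDNAs, in HSP90AA2P, HSPA8P15 and HSPD1P4. The IgG list had 1, with 2 cDNAs.

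Other chaperones and co-chaperones did not share the ratio of these genes as a group. In a list of 102 genes by function, 91 had a site, 80 had at least 10 cDNAs, 19 were called higher (23.8%, beside 18.8% of all genes) and 10 lower, with a median log2 ratio of 0.13. Genes with many PDCD4 cDNAs were FKBP5, an HSP90 co-chaperone (483 PDCD4 and 288 IgG cDNAs, ratio 0.18), CANX, the lectin chaperone calnexin (279 and 100, 0.90), GAK, a J-domain kinase that uncoats clathrin vesicles (169 and 97, 0.23), and P4HB, protein disulfide isomerase (151 and 27, 1.87). The endoplasmic reticulum genes had 3 of 9 higher and the cytosolic chaperonin TRiC with prefoldin 5 of 12, with a median of 0.89, while J-domain proteins, which deliver clients to HSP70, had 1 of 23. Among the wider genes with at least 20 cDNAs, the highest ratios were those of CCT5, HYOU1 and CLPP. CCT5, a TRiC subunit, had 37 PDCD4 cDNAs and no IgG cDNA. HYOU1, an HSP70 relative of the endoplasmic reticulum, had 59 and 3 (3.34, 2.11 to 6.05), and CLPP, a mitochondrial protease, had 44 and 3 (2.92, 1.67 to 5.64).

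At the same minimum of 20 cDNAs, the lowest ratios in the wider list were those of HSPH1, the HSP110 exchange factor of HSP70, with 22 PDCD4 and 40 IgG cDNAs (-1.40, -2.25 to -0.64), DNAJC3, a J-domain partner of HSPA5, with 64 and 95 (-1.13, -1.62 to -0.67), and CHORDC1, an HSP90 co-chaperone, with 23 and 32 (-1.03, -1.88 to -0.23). HSPE1, the lid of the HSPD1 folding chamber, was looked up after the value of HSPD1 had been seen. It had 3 PDCD4 and 10 IgG cDNAs (-2.03, -4.80 to -0.35), and its interval does not overlap that of HSPD1.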

How the data were processed

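The iCLIP libraries of MCF10A cells were processed by the authors with iCount against Ensembl release 88 (GRCh38), and 1 pooled list of crosslink sites was deposited for PDCD4 and 1 for IgG. The deposited score of a 1-nt site is its cDNA count without normalization. Listed sites had passed iCount's false discovery rate filter, and the methods' further filter, scores above 5, is not applied in the lists. The aligner and the treatment of reads mapping to several places are not given in the sources used here.

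Sites were matched to genes by the deposited symbol and to annotated regions (GENCODE release 44, same strand). Where transcripts differed, coding sequence took precedence, then 3′UTR, 5′UTR, non-coding exon and intron. The label identifiers were known to this annotation for 99.7% of sites. Sums per 10000 cDNAs of a list were compared as log2 ratios with a pseudocount of 1. Shares and ratios carry exact (Clopper-Pearson) 95% intervals, and the bars of the level plot exact Poisson intervals. Depth was 409308 cDNAs for PDCD4 and 276139 for IgG. Copies of the 20, 30 and 40 nt after each site were searched on both strands of the genome. The pairwise alignment used Biopython 1.88.

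The members and lists were chosen with earlier results of these data known. All 10 members are named; of the 102 wider chaperones, the 5 with most PDCD4 cDNAs (1 of them is not reported here) and, at a summed score of at least 20, the 3 highest and 3 lowest ratios; and the 3 genes nearest to HSP90AA1. HSPE1 and the snoRNAs were named after their values were seen. The scripts were tested on simulated data. Python 3.11.15 was used, with scipy 1.17.1 for intervals, numpy 2.4.6, matplotlib 3.10.9 for plots and pandas 2.3.3.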

Additional observations from a re-analysis of the deposited data

How the results depend on the processing

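No paired analysis was possible because the replicates of each immunoprecipitation are pooled in 1 list, so that the numbered replicates cannot be told apart in it. The ratio over the 10 genes was 1.85 and stayed between 1.77 and 1.87 with numbers of sites, a pseudocount of 5, totals without the mitochondrial genome, single-label sites, single-copy sites, or without HSP90AA1. It was 2.27 with scores above 5, 2.03 without positions in both lists and 2.03 over canonical exons; the last and the setting without HSP90AA1 were chosen after seeing the data. With scores above 10 no IgG site was left. Genes called higher numbered 7 of the 10, and 6 to 8 under other settings except 4 with scores above 5; for the 102 wider genes 19 became 2 with scores above 5 and 7 at a minimum summed score of 50, where fewer genes were tested. The pseudocount of 5 took HSPA1A to 0.96. Single-gene values were taken where both lists had cDNAs; of these 65 values 62 stayed within the main interval, and none that was called changed sign. With scores above 5 this left HSP90AB1 and HSPA8. HSP90AA1, HSP90B1 and HSPD1 then had PDCD4 sites only, and HSPA9 had the opposite direction, 0 PDCD4 and 6 IgG cDNAs, for which no ratio is given.

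The coding share of 71.4% was 85.5% with scores above 5, 88.9% above 10 and 74.8% by summed score. It was 67.2% without HSP90AA1 and 71.1% with 1 transcript per gene. It was 19.6% when UTRs, introns and non-coding exons of any transcript were counted before coding sequence. Most of the coding sites also lie in an intron, UTR or non-coding exon of another annotated transcript. The share of coding sites in the middle part, 44.2%, was 49.1% with scores above 5. The repeated-sequence share of 38.5% was 57.5% for 20 nt and 19.4% for 40 nt. Depth limits HSPA1A, HSPA1B, HSPB1 and the IgG side of HSPA5 and HSPD1 most, each with 11 or fewer IgG cDNAs.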
